A study of Mus musculus with 2 samples.

Results

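Mice carry 6 actin genes that encode the classical actins, and all 6 had a row in both gene tables from newborn skeletal muscle, among 43346 gene rows. They were chosen by name: Acta1 (skeletal muscle alpha-actin), Actc1 (cardiac alpha-actin), Acta2 (smooth muscle alpha-actin), Actg2 (smooth muscle gamma-actin), Actb (cytoplasmic beta-actin) and Actg1 (cytoplasmic gamma-actin). The data were total RNA sequencing from 2 newborn pups of the B6NCrl strain, with skeletal muscle taken on postnatal day 0 (called pup 1 and pup 2 here), and 1 library per pup. The labels gave no genotype change and no treatment, did not name the muscle or muscles dissected, and listed the sex as not collected. The labels called the libraries biological replicates and named both pups under the same pregnancy, and both carried the same donor entry. The spread between them is therefore at most that of a single litter and may be in part technical. The tables held 40455042 and 37151129 expected counts (reads assigned to genes by a statistical model, so not always whole) in pup 1 and pup 2.

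Actin is the globular protein that polymerises into the thin filaments of muscle and into the cytoskeletal filaments of every cell. In striated muscle the alpha-actins build the sarcomere together with myosin, troponin and tropomyosin, and cardiac alpha-actin is known to be made in embryonic skeletal muscle before skeletal alpha-actin takes over during development. The smooth muscle actins mark blood vessel walls and hollow organs, and the cytoplasmic actins serve shape, adhesion and movement in muscle and non-muscle cells alike.

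The 6 genes are close copies in their coding sequence, and this sets what short reads can tell apart. The first 90 coding bases of the main transcript model of each gene, from GENCODE, show how the copies differ. Capitals mark the bases that differ from the aligned base of Acta1, and gaps in the alignment are not drawn.
Acta1: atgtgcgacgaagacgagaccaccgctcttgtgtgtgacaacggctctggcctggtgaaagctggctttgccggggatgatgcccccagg
Actc1: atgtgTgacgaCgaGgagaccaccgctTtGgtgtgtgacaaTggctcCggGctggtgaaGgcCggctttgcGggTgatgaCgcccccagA
Acta2: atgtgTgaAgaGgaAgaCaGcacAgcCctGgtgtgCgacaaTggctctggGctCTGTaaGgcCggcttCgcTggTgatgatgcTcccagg
Actg2: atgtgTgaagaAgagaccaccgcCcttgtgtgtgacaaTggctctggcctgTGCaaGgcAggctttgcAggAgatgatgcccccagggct
Actb: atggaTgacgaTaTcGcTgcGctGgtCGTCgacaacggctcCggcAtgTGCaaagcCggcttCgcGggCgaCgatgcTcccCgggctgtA
Actg1: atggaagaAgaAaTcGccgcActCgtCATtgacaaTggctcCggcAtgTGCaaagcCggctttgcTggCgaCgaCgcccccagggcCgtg
In this stretch 11 bases of Actg2, 14 of Actc1, 21 of Actg1, 22 of Acta2 and 24 of Actb differed from Acta1.

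Across the whole coding sequence the genes differed mostly at positions that leave the protein as it is. Acta1 and Actc1 were identical at 86.3% of coding bases and at 98.9% of encoded residues. Of the 150 codons that differed between them, 146 encoded the same residue and 4 did not. The smooth muscle pair, Acta2 and Actg2, was identical at 84.3% of bases and 99.5% of residues, with 165 of 167 differing codons encoding the same residue. The cytoplasmic pair, Actb and Actg1, was identical at 88.6% of bases and 98.9% of residues, with 121 of 125 differing codons silent. Between classes the proteins lay further apart: Acta1 and Actb shared 93.6% of residues.

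**Figure D1:**
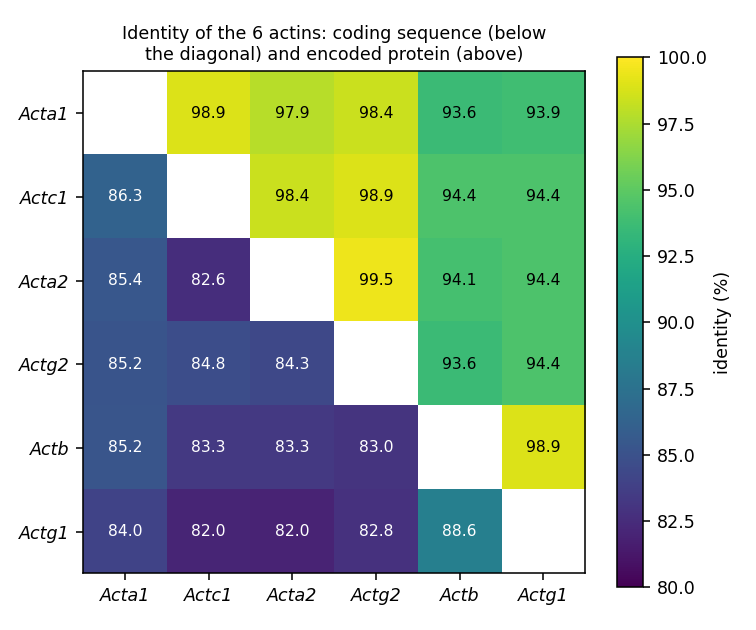
Pairwise identity of the 6 actin coding sequences in percent, with nucleotide identity on one side of the diagonal and residue identity on the other. Nucleotide identity ran from 82.0% (Acta2 with Actg1) to 88.6% (Actb with Actg1), while the pairs within a class reached 98.9% to 99.5% of residues.

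The effective lengths in the tables imply reads of 100 bases, so sharing between genes was counted in windows of that length. No such window was shared between any of the 6 main models. Acta1, Actc1, Acta2 and Actg2 shared none with any other annotated transcript either, over 1347, 1374, 1936 and 1234 windows. Actb shared 20 of its 1821 windows (1.10%), with Lrrc58 and the pseudogene Gm15725. Actg1 stood apart: 946 of its 1853 windows (51.1%), and 91.9% of those in its coding sequence, also occurred in other genes, 6 in number, which included the pseudogenes Gm12715 and Gm8399 and the annotated gamma-actin pseudogene Actg-ps1. The longest exact run it shared, with Gm12715, was 857 bases. These counts use the M21 release of GENCODE, in which Acta1-201 has 1446 bases and Acta2-201 has 2035, against 1433 and 1781 in the release behind the tables.

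The tables put few reads on those copies. Gm12715 held 140 and 102 expected counts in pup 1 and pup 2, and Gm8399 held 30.9 and 23.2. Gm15725 held 38.7 and 6.59, and Actg-ps1 held 5.19 and 4.03. The actin copies with a row summed to 215 and 136 counts, against 31342 and 24229 for Actg1 alone. Actbl2, an intronless gene for a beta-actin-like protein, was listed at 0 counts in both pups, which allows up to 3 counts in each. The split of reads between Actg1 and its copies is a model estimate and remains uncertain.

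Acta1 was the most abundant of all nuclear protein-coding genes in both pups. Levels between genes are compared here in TPM (counts divided by transcript length and scaled to the same total in each library), as mean ± SD over n = 2 pups. Of the 21461 nuclear protein-coding rows, 12482 (58.2%) had a mean of at least 1 TPM, and their median level was 11.8 TPM. All 6 actins lay above that median. The 58.2% is also the background for the counts of marker and actin-related genes at 1 TPM given further below.

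The striated actins were the most abundant pair. Acta1 (ENSMUSG00000031972; chr8:123891769-123894751, minus strand, mm10) stood at 49664 TPM in pup 1 and 57562 TPM in pup 2, a mean of 53613 ± 5585, and ranked 1 in each. It alone took 4.90% and 5.85% of all counts assigned to genes. Actc1 (ENSMUSG00000068614; chr2:114047282-114053548, minus strand) stood at 6778 and 6952 TPM, a mean of 6865 ± 123, and ranked 11. The pups' values for Actc1 lay closer together in proportion than those for Acta1, and pup 2 was the higher for both genes.

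The cytoplasmic actins followed. Actb (ENSMUSG00000029580; chr5:142903115-142906754, minus strand), whose transcript is often used as a loading reference, stood at 2510 and 1829 TPM, a mean of 2169 ± 482, and ranked 25 in pup 1 and 41 in pup 2. Actg1 (ENSMUSG00000062825; chr11:120345690-120348542, minus strand), the other actin of the general cytoskeleton, stood at 600 and 503 TPM, a mean of 551 ± 68.6, and ranked 199 and 227. Here pup 1 was the higher for both genes, the opposite of the striated pair in TPM.

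The smooth muscle actins came last and were far apart from each other. Acta2 (ENSMUSG00000035783; chr19:34241090-34255590, minus strand), the contractile actin of vessel walls, stood at 288 and 268 TPM, a mean of 278 ± 14.2, and ranked 434 and 427. Actg2 (ENSMUSG00000059430; chr6:83512905-83536265, minus strand), known mainly from the gut and bladder wall, stood at 15.02 and 12.01 TPM, a mean of 13.5 ± 2.13, and ranked 5632 and 5904. It rested on 549 and 408 counts, against 14489 and 12748 for Acta2.

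**Figure D2:**
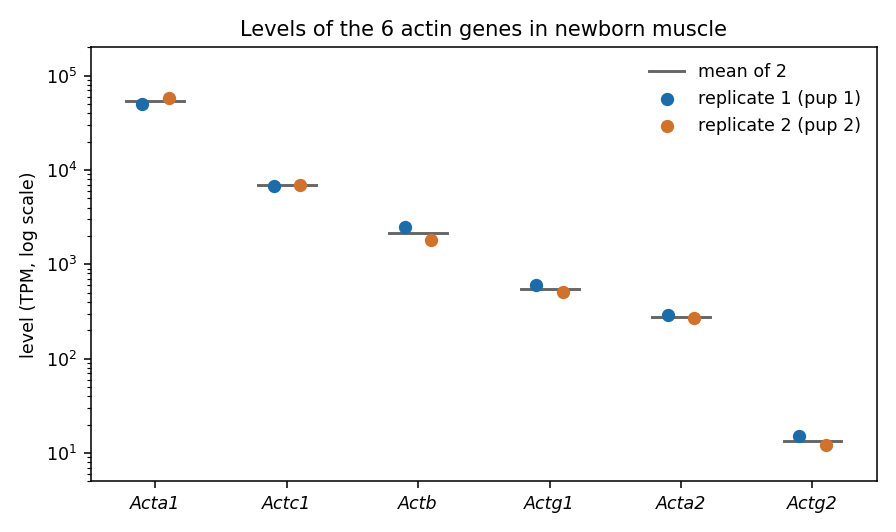
Level of each actin gene in TPM on a log axis, with 1 point per pup and a line at the mean of 2 pups. The 6 genes run from 53613 TPM for Acta1 to 13.5 TPM for Actg2, and no neighbouring pair overlaps between pups.

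The order by mean TPM was Acta1, Actc1, Actb, Actg1, Acta2 and Actg2, and it was the same in both pups. Neighbours in that order differed by 7.81-fold (Acta1 over Actc1), 3.16-fold (Actc1 over Actb), 3.94-fold (Actb over Actg1), 1.98-fold (Actg1 over Acta2) and 20.6-fold (Acta2 over Actg2). The closest approach was between Actg1 and Acta2, where the lower Actg1 value exceeded the higher Acta2 value 1.74-fold. All 15 pairs of genes had the same sign in both pups and a mean log2 TPM ratio more than 3 SD from 0. With 2 pups an exact sign-flip permutation test cannot give a two-sided p below 0.5, so no test was made.

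The log2 TPM ratio of Acta1 over Actc1, the pair that exchanges during muscle development, was 2.87 in pup 1 and 3.05 in pup 2, a mean of 2.96 ± 0.12 (SD, n = 2). Acta1 over Actb varied more, with log2 ratios of 4.31 and 4.98 (4.64 ± 0.47). Actc1 over Actb was 1.43 and 1.93 (1.68 ± 0.35). Among the smooth muscle and cytoplasmic genes the log2 TPM ratio was 1.96 ± 0.14 for Actb over Actg1, 0.98 ± 0.11 for Actg1 over Acta2 and 4.36 ± 0.15 for Acta2 over Actg2. Actg1 over Actg2 had the smallest SD of the 15 pairs, at 5.34 ± 0.05.

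Together the 6 genes held 2440648 and 2571537 counts, which were 6.03% and 6.92% of the counts assigned to genes. Their TPM summed to 59856 and 67126. Of this actin sum, Acta1 made up 83.0% and 85.8% (84.4% ± 1.97, SD, n = 2) and Actc1 11.3% and 10.4% (10.8% ± 0.684). The striated pair thus took 94.3% of actin TPM in pup 1 and 96.1% in pup 2, a mean of 95.2% ± 1.28. Pup 2 had the larger share of Acta1 and the smaller share of each of the other 5 genes.

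Actb made up 4.19% and 2.72% of actin TPM (3.46% ± 1.04), and Actg1 1.00% and 0.749% (0.875% ± 0.179). The cytoplasmic pair summed to 5.20% and 3.47%. Acta2 made up 0.481% and 0.399% (0.440% ± 0.0580), and Actg2 0.0251% and 0.0179% (0.0215% ± 0.00509). The smooth muscle pair therefore remained under 1% of actin TPM in each pup, at 0.506% and 0.417%.

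Shares of the actin counts, which are not corrected for length, gave the long cytoplasmic transcripts more weight. Actb held 5.53% of actin counts in pup 1 (exact 95% Clopper-Pearson interval 5.50% to 5.56%) and 3.59% in pup 2 (3.57% to 3.62%). Actg2 held 0.0225% (0.0207% to 0.0245%) and 0.0159% (0.0144% to 0.0175%). The pups' intervals, which cover counting error only, did not overlap for these genes, nor for any other of the 6 actins. Pup 1 was the higher for all but Acta1.

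**Figure D3:**
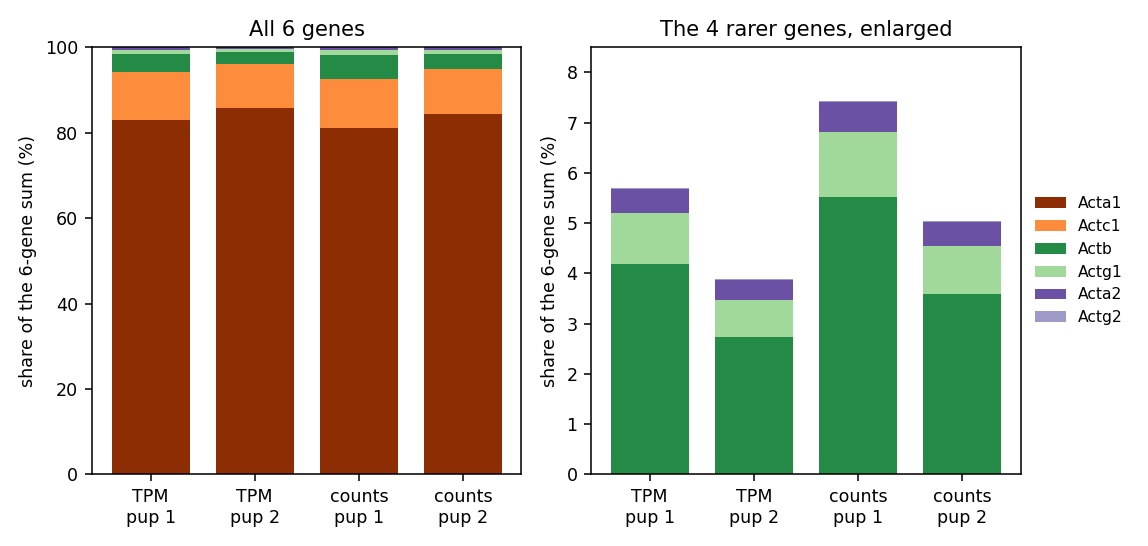
Share of each gene in the 6-gene sum for each pup, in TPM and in expected counts, with the 4 rarer genes enlarged in the right panel. Acta1 fills 83.0% and 85.8% of actin TPM, and the Actb segment is smaller in pup 2 (2.72%) than in pup 1 (4.19%), while Actg2 is too small to see.

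Between the pups, none of the 6 genes differed by 2-fold. The ratio was taken as log2 CPM (counts scaled to library size) of pup 2 over pup 1, scaled with TMM (edgeR's trimmed mean of M-values, which sets the bulk of genes to no change), with a prior count of 2. Over the 12429 genes with a mean of at least 100 counts, 302 (2.43%) differed at least 2-fold: 284 (2.28%) were higher in pup 1 and 18 (0.145%) were higher in pup 2. The quartiles of the log2 ratio over these genes were -0.17 and 0.13. With 1 library per pup these ratios compare libraries and carry no test.

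Acta1 had 1980917 and 2171633 counts and a log2 ratio of 0.35 (95% counting interval 0.34 to 0.35), so pup 2 was higher. The size depended on the scaling: the ratio was 0.26 with libraries scaled by their totals, 0.21 in TPM and 0.10 by the spike-in counts. Actc1, with 278438 and 270113 counts, had a log2 ratio of 0.17 (0.16 to 0.18), which turned to -0.08 when libraries were scaled by the spike-in counts. On the TMM scale, larger absolute ratios than those of Acta1 and Actc1 were found in 17.0% and 45.6% of the tested genes. All 8 skeletal muscle fibre markers were also higher in pup 2 on the TMM scale, with log2 ratios from 0.13 to 0.51. Scaled by the spike-in counts, 6 of them lay below 0, and 1 did in TPM. Of all 12429 genes, 52.1% lay below 0 on the TMM scale, 87.8% by spike-in counts and 74.2% in TPM. Under each of these scalings 0 of the 8 markers lay below the median of all genes.

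Actb, with 134913 and 92406 counts, had a log2 ratio of -0.33 (-0.35 to -0.32), and Actg1 one of -0.16 (-0.18 to -0.13). Both were higher in pup 1 under every scaling run. In 18.3% and 48.3% of genes the absolute ratio was larger. For Actg2 the log2 ratio was -0.21 (-0.40 to -0.03), and for Acta2 it was 0.03 (-0.01 to 0.06), an interval that includes no difference. All these intervals cover counting error only and do not test a difference between animals. Acta2 changed sign when libraries were scaled by their totals, by spike-in counts or as TPM, with a lowest log2 value of -0.22.

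**Figure D4:**
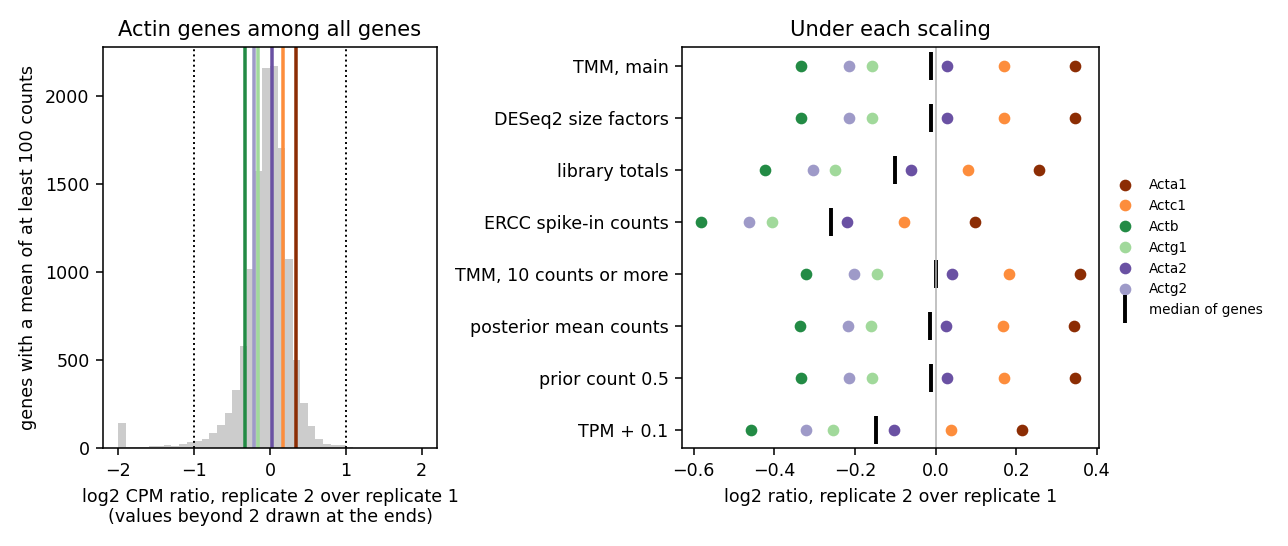
Left, histogram of the log2 ratio of pup 2 over pup 1 for 12429 genes, with a line for each actin gene and dotted lines at 2-fold, and right, the actin ratios under each scaling, with the median of all genes as a black bar. Acta1 (0.35) and Actc1 (0.17) lie above 0 and Actb (-0.33), Actg2 (-0.21) and Actg1 (-0.16) below it on the TMM scale, while the spike-in scaling moves Actc1 to -0.08, and all stay within the 2-fold limits.

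Markers of some other cell types also moved between the pups, and in bulk tissue fewer cells of a type and less RNA per cell cannot be told apart. All 5 epidermal markers (summed level 428 TPM in pup 1, 4.19 TPM in pup 2) and all 4 adipocyte markers (2111 and 89.6 TPM) were at least 2-fold higher in pup 1. So were the 3 cartilage markers of 4 that reached 100 counts, with the list summing to 31.6 and 0.80 TPM. Of all genes tested, 2.28% were at least 2-fold higher in pup 1. The 4 leukocyte markers summed to 1076 and 591 TPM and the 5 fibroblast markers to 5131 and 3695 TPM, with median log2 ratios of -0.58 and -0.22 and none past 2-fold. The fibroblast marker Pdgfra went the other way (log2 ratio 0.32). Most of the leukocyte sum was Cma1 (567 and 315 TPM) and Cpa3 (485 and 261 TPM), proteases of mast cells. The other leukocyte markers were lower, Cd68 at 21.9 and 13.3 TPM and Ptprc at 2.6 and 1.77 TPM. Markers of endothelium, pericytes and smooth muscle had median log2 ratios of 0.02, -0.04 and -0.07, and none passed 2-fold. The part of any of these cell types in the pup difference of Actb, Actg1 and Actg2 was not tested.

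Cardiac alpha-actin was high while markers of heart muscle itself were low. Of 8 heart markers, 4 had a mean of at least 1 TPM. The 2 high ones, Sln (sarcolipin, 5479 TPM on average) and Myl4 (atrial light chain, 753 TPM), are also made by developing skeletal muscle. Tnni3 (cardiac troponin I) stood at 2.82 ± 0.25 TPM (SD, n = 2) and Myh6 (alpha myosin heavy chain) at 2.38 ± 0.11. Myl7, Nppa, Nppb and Ryr2 had means of 0.86, 0.68, 0.13 and 0.04 TPM, and none of the 8 was at 0.

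Markers of smooth muscle and pericytes were measured beside Acta2 at levels from above it to far below it. All 9 smooth muscle markers had a mean of at least 1 TPM, and they summed to 2393 and 2265 TPM, most of it Des (desmin, 1928 TPM), which skeletal fibres also make. Smtn (smoothelin), at 273 and 246 TPM, was close to Acta2 (288 and 268 TPM), and Synpo2 (an actin-binding protein also found in striated muscle) stood at 94.8 ± 7.18 TPM (SD, n = 2). Tagln (transgelin) stood at 30.5 ± 1.02 TPM (SD, n = 2), Myh11 (smooth muscle myosin heavy chain) at 6.23 ± 0.69 and Cnn1 (calponin) at 4.83 ± 1.32. The 6 pericyte markers all passed 1 TPM and summed to 80.7 and 70.2 TPM. The highest were Kcnj8 and Abcc9, subunits of a potassium channel, at 24.9 ± 5.54 and 13.3 ± 1.53 TPM (SD, n = 2), and Rgs5 and Pdgfrb followed at 12.7 and 9.29 TPM. In both pups Acta2 lay below Des, slightly above Smtn and above the other 7 smooth muscle markers.

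For Actg2, few markers of the visceral wall were listed, and most of them had a mean below 1 TPM. Of 4 genes listed for the gut and visceral muscle wall, Hhip alone had a mean of at least 1 TPM in both pups (2.98 and 2.29 TPM). Barx1 and Nkx2-3, transcription factors of the stomach and gut wall, were listed at 0 counts in both pups, which allows up to 3 counts in each. Dsc3, a desmosomal cadherin made by skin and so not particular to visceral muscle, stood at 1.48 TPM in pup 1 and 0.01 TPM in pup 2. Its log2 ratio of -5.70 lay within the range of the epidermal markers (-9.57 to -4.63).

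Each actin row summed several transcript models, except Acta1 and Acta2, which had 1 each. Actc1-201 held 99.99% and 99.98% of the TPM of its gene, and Actb-201 held 97.7% and 96.7% of 8 models. For these 4 genes the level was in effect that of 1 model.

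Actg1 was split. Of its 9 models, Actg1-202 held 58.5% and 48.3% of the gene's TPM and Actg1-204 held 35.7% and 42.5%. Both encode the same protein and share all coding blocks, and they differ mainly upstream. Actg1-202 begins with an exon of 118 bases (chr11:120348425-120348542) followed by an exon of 129 bases (chr11:120347969-120348097). Actg1-204 begins with an exon of 123 bases (chr11:120347969-120348091), which lies inside that 129-base exon. Every exon of Actg1-204 lies inside an exon of Actg1-202, so Actg1-204 has no sequence of its own. The split between the models is an estimate and remains uncertain. In pup 1 the deposited intervals of the models did not overlap (323 to 368 TPM and 184 to 231 TPM), while in pup 2 they did (221 to 252 TPM and 195 to 227 TPM). The posterior SD of the count (the model's own uncertainty) was 636 and 402 counts for Actg1-202, against 18.2 and 15.7 for the gene as a whole.

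Retained-intron models were annotated only for Actg1 (3 models) and Actb (2 models), so the other actins could hold no such share. They held 4.36% of Actg1 TPM in pup 1 and 6.80% in pup 2, and 0.56% and 0.74% of Actb TPM. Most of the Actg1 share was Actg1-207, at 3.08% and 5.04%. In expected counts the retained-intron share of Actg1 was lower, 1.82% and 2.90%, and for Actb it was 0.24% and 0.32%. Total RNA holds unspliced transcripts as well as mature ones.

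Actg2 had few reads to divide. Among its 5 models Actg2-201 held 80.1% and 86.7% of the TPM, Actg2-202 held 19.9% and 9.25%, and Actg2-203 held 0% and 4.06%. The order of the first 2 was the same in both pups.

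**Figure D5:**
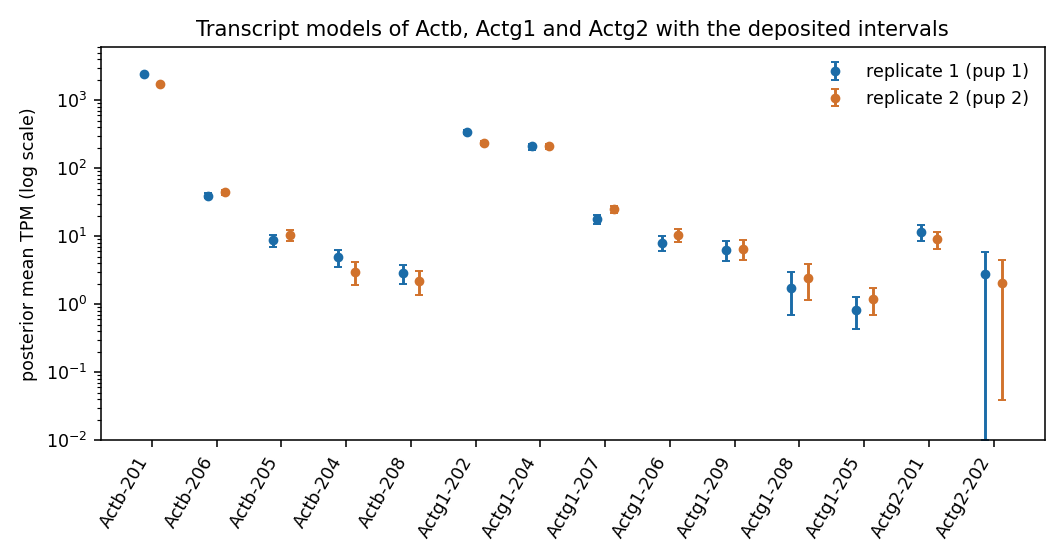
Posterior mean TPM on a log axis for the transcript models of Actb, Actg1 and Actg2 that reach 1 TPM in either pup, with 1 point per pup and the deposited interval as a bar. Actb has a single high model, Actg1 has a pair of models above the rest (Actg1-202 and Actg1-204), and the interval of Actg2-202 in pup 1 runs past the bottom of the axis.

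Overlap with other annotated genes added little to these rows. Gm20388, on the strand opposite Acta1, and Gm23419 and Mir6935, on the strand of Actg1, were listed at 0 counts. A530058N18Rik, opposite Actc1, held 5.95 and 15.7 counts, against 278438 and 270113 for Actc1.

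The actin promoters are textbook targets of serum response factor (SRF), which binds the CArG box and works with myocardin-related coactivators that sense the pool of free actin. Promoter windows of 300 bases, 250 before and 50 after the annotated start (RefSeq, GRCm38.p6), were matched for 4 of the 6 genes: Acta1, Actc1, Acta2 and Actg1. The CArG box, searched as an exact match (a palindromic pattern, so the same on both strands), was found in 3 of these windows and in 535 of all 32851 windows of the same length (1.63%). The bases before the start that lie outside annotated exons are shown for those 3 genes with the box in capitals, which begins 73, 47 and 90 bases before the RefSeq start.
Acta1 (chr8:123894776-123894895, minus strand): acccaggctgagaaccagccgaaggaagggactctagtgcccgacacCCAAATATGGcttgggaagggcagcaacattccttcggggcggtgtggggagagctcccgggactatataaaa
Actc1 (chr2:114052888-114052995, minus strand): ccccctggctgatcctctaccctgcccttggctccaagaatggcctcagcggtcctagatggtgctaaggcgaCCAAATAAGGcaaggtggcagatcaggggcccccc
Actg1 (chr11:120348543-120348615, minus strand): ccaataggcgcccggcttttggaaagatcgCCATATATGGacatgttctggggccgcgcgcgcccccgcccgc
The Acta2 window held no exact match and 2 copies with 1 mismatch. Beside their exact match, the Acta1 window held 2 copies with 1 mismatch, the Actc1 window 3 and the Actg1 window 0. A box with at most 1 mismatch occurred in 21.1% of all windows. A match is a description of the sequence and was not related to the levels.

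SRF itself and its partners were present at low to moderate levels. The mean was 1 TPM or more for all 12 listed genes, with a median of 13.4 TPM, beside 58.2% of nuclear protein-coding genes and their median of 11.8 TPM. Srf stood at 5.95 ± 0.42 TPM (SD, n = 2), and the coactivators Mrtfa and Mrtfb at 15.8 ± 0.85 and 8.78 ± 0.21. Myocd (myocardin, the coactivator of heart and smooth muscle) was the lowest, at 1.42 and 0.93 TPM. Mef2c (146 TPM) and Mef2d (55.2 TPM), muscle transcription factors, Abra (64.2 TPM), an activator of SRF signalling in striated muscle, and Fhl2 (29.3 TPM), a LIM-domain cofactor, had the highest levels in the list.

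The genes whose products bind actin monomers and filaments were all expressed: 22 of 22 had a mean of at least 1 TPM, with a median of 124 TPM. The thymosins Tmsb4x and Tmsb10, which sequester monomers, stood at 1770 and 1243 TPM and at 1435 and 910 TPM. Pfn1 (profilin, which loads monomers onto growing ends) stood at 875 and 658 TPM, and Cfl1 (cofilin, which severs filaments) at 664 and 460 TPM. These 4 were higher in pup 1 in TPM, as were 74.2% of all 12429 genes with a mean of at least 100 counts. On the TMM scale 11 of the 22 lay below 0, beside 52.1% of all genes. None of the 22 differed 2-fold between the pups, beside 2.43% of all genes tested, and their median log2 ratio was -0.01.

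The Arp2/3 complex, which branches filaments, was present in full, with 9 of 9 genes above 1 TPM and a median of 76.7 TPM. Its highest members were Arpc2 (194 ± 32.8 TPM), Arpc4 (166 ± 31.4), Arpc1b (126 ± 38.7) and Arpc5 (106 ± 26.2; SD, n = 2). All 9 were higher in pup 1, with log2 ratios from -0.61 to -0.05 and a median of -0.23, where 52.1% of all 12429 genes lay below 0. The sign of all 9 was the same under each of the other scalings, which also placed more of all genes below 0 when they used library totals (67.9%), TPM (74.2%) or spike-in counts (87.8%). None of the 9 passed 2-fold, beside 2.43% of all genes tested.

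Formins and other nucleators were mostly low. The mean reached 1 TPM for 15 of 19 genes, and the median was 2.08 TPM. The highest were Cobl (205 ± 11.5 TPM), a nucleator, and the leiomodins Lmod3 (93.7 ± 10.7) and Lmod2 (57.9 ± 0.80), which act at the pointed ends of sarcomeric thin filaments. The fourth, the formin Fmnl3, stood at 8.45 ± 1.43 TPM (SD, n = 2).

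Actin needs the chaperonin CCT and its partner prefoldin to fold. The 15 genes listed here were those of CCT and prefoldin and Pdcl3 (174 TPM), a phosducin-like cofactor. All 14 that had a row passed 1 TPM, at a median of 138 TPM. The row of Cct6a, a CCT subunit, was not matched, so it was not analysed here. Pfdn5 (241 TPM), Tcp1 (217 TPM), Cct3 (212 TPM) and Cct5 (198 TPM) were the highest. Enzymes that modify actin were lower, 10 of 10 above 1 TPM at a median of 16.1 TPM. Among them Naa10, an N-terminal acetyltransferase subunit, stood at 81.0 TPM, Setd3, the actin histidine methyltransferase, at 72.1 TPM, Msrb1, a methionine sulfoxide reductase, at 46.7 TPM and Ate1, an arginyltransferase, at 19.9 TPM.

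The actin-like genes outside the classical 6 fell into expressed and silent members. The mean reached 1 TPM for 7 of 16, beside 58.2% of nuclear protein-coding genes. The highest were the dynactin subunits Actr1a (56.3 TPM), Actr1b (49.1 TPM) and Actr10 (28.5 TPM) and the chromatin remodelling subunit Actl6a (34.8 TPM). Another 7 were listed at 0 counts in both pups: Actbl2, Actl6b, Actl7a, Actl7b, Actl9, Actrt1 and Actrt2. Several of these are known from testis or brain. Even the highest of the 16 lay below Acta2 in TPM, the fifth of the classical actins.

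Across the actin-related lists 89 of 102 genes with a row reached a mean of 1 TPM, against 58.2% of nuclear protein-coding genes. Of the 87 that reached 100 counts none differed 2-fold between the pups, against 2.43% of all genes tested.

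The nuclear protein-coding genes nearest to each actin in level were found as those with the smallest summed absolute log2 difference in TPM over the 2 pups. Nothing lay close to Acta1: the nearest were Myl1 (23446 ± 1544 TPM), a fast light chain, and Tnnc2 (19258 ± 255 TPM), fast troponin C, with summed differences of 2.38 and 2.95. Actc1 lay beside the glycolytic enzymes Aldoa (7074 ± 395 TPM, difference 0.08) and Gapdh (5833 ± 48.0 TPM, 0.47; SD, n = 2).

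Actb lay beside Col3a1, a fibrillar collagen (2496 and 1897 TPM, summed log2 difference 0.06), and Ftl1, ferritin light chain (2426 and 1848 TPM, 0.06). Both were higher in pup 1, as Actb was, which follows from picking them for closeness to Actb in both pups. Actg1 lay beside Bsg (basigin, 614 and 497 TPM) and Tppp3 (614 and 511 TPM). Acta2 had Mrpl17 and Phb2, mitochondrial proteins, at 276 and 283 TPM as its nearest, and Actg2 had Fra10ac1 and Gmpr2, at 13.5 and 13.6 TPM. With 2 samples this measure describes level and says little about pattern.

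For 5 of the genes the deposited intervals lay below the TPM printed in the same row. For Acta1 the interval was 48641 to 48796 TPM in pup 1 and 56323 to 56497 TPM in pup 2, against 49664 and 57562 TPM. In 10 of the 12 gene-by-pup values TPM fell outside the interval, and only the Actg2 values fell inside, with intervals of 13.8 to 16.4 and 11.0 to 13.5 TPM. Among all genes with at least 100 counts, 3.94% in pup 1 and 4.33% in pup 2 fell outside. The intervals were centred on a second estimate, the posterior mean, which was 0.980 to 0.983 times the TPM for those 5 genes. Since the 5 moved by nearly the same factor, their order and ratios were nearly the same on that scale.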

How the data were processed

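Per the file headers, each library had a gene table and a transcript table with expected counts, TPM, posterior mean estimates, the posterior SD of the count (a score here), intervals of TPM and, for transcripts, the percent of the gene's TPM. Expected counts, TPM, these percent values and the score columns were made by the authors and used as deposited. The files accompanying the tables name mm10 and GENCODE M4. The aligner and quantifier: not given in the sources used here. Symbols, coordinates and transcript sequences were taken from GENCODE M21 on the same build (42462 of 43346 gene rows matched), and promoter windows from RefSeq.

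The single group of 2 pups allows no comparison of conditions. Shares, log2 ratios with 0.1 TPM added and exact intervals were computed in Python 3.11.15 (scipy 1.17.1). Ratios between pups used TMM in edgeR 4.0.16 on expected counts rounded to whole numbers and the calculation was checked on simulated data, and DESeq2 1.42.0 size factors were an alternative. No significance test was made. Text names the 6 actins, up to 4 highest genes of each list, markers at 0, the 2 nearest genes in level, models with at least 5% of TPM and actin copies with at least 10 counts; other genes were named after their values were seen. Members and lists were chosen with earlier results of these data known. Depth was 40455042 and 37151129 counts. ERCC spike-ins held 406 and 416 counts, so scaling by them is imprecise.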

Additional observations from a re-analysis of the deposited data

How the results depend on the processing

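When shares were taken from expected counts in place of TPM, the striated share of the actin sum was 93.8% (95.2% in TPM), the smooth muscle share 0.564% (0.462%) and the cytoplasmic share 5.67% (4.33%). The other 56 recomputed values of the class shares, the Acta1 share, the within-class pair ratios, the count of pairs apart, the summed count over all actin-related lists and the count past 2-fold stayed within the spread between pups or within 1.5 times their value. Counts of single lists were less stable, and 9 of their recomputed counts moved by more. At a limit of 5 TPM in place of 1 TPM the formins went from 15 to 4, smooth muscle from 9 to 5 and heart from 4 to 2 markers, and without pup 1 the cartilage markers at 1 TPM went from 3 to 0 and the epidermal from 5 to 1. Among values of 1 gene, pair or transcript 28 moved and 158 did not. The pup ratio changed sign for Acta2 under 3 scalings and for Actc1 under 1. Restricting each gene to its protein-coding models moved the log2 TPM ratio of Actg1 over Acta2 from 0.98 to 0.87. Scaling by spike-in counts shifted the median of all genes by -0.25 on the log2 scale, TPM by -0.14 and library totals by -0.09, all toward pup 1, so only the small positive pup differences changed sign. No paired analysis was possible because the series has a single group. Leaving out a pup leaves 1 library and no spread. The 56 and the 158 unmoved values include levels, shares and ratios taken without 1 pup. With 2 pups such a value always lies within 1 SD of the mean. It could not move, so it says nothing about stability. Each pup's value is printed in its place. With 2 libraries under 1 donor entry, SDs may understate the spread between animals.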
